A study of Mus musculus with 2 samples.

Results

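The genes described here are the subunits of the hypoxia-inducible factors (HIF) and the proteins that sense oxygen for them. They were chosen by symbol: Hif1a, Epas1, Hif3a, Arnt, Arnt2, Egln1, Egln2, Egln3, Vhl and Hif1an. All 10 were found, each on 1 line of the deposited tables, among 22886 genes in all. The series holds 2 RNA sequencing libraries of polyA RNA from C57BL/6 mice of wild type genotype, 1 from mice injected with vehicle and 1 from mice injected with clodronate, a bisphosphonate used to kill phagocytes. The labels describe both as FACS-sorted aerobic cells of a subcutaneous LLC tumor, a mouse lung carcinoma line grown under the skin, and give neither age, dose, sorting markers nor the number of mice. A growth protocol attached to both names EML cells, a blood progenitor line, which conflicts with the tumor labels. Each condition has 1 library, so that no difference can be set against a spread between replicates and no p-value was computed.

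A HIF is a pair of an alpha and a beta subunit that binds DNA and switches on genes for glycolysis, blood vessel growth and survival at low oxygen. The alpha subunits are made all the time. In oxygen, prolyl hydroxylases (the products of Egln1, Egln2 and Egln3) mark them, VHL binds the mark as part of a ubiquitin ligase, and the proteasome destroys them. A separate enzyme, the product of Hif1an, hydroxylates an asparagine and keeps the coactivator p300 away. Macrophages use HIF-1 for glycolysis and inflammatory gene expression. Because control of the alpha subunits acts on the protein, the RNA levels given here say nothing about how much HIF protein the cells held.

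The cell labels were compared with marker genes first. All 12 macrophage markers were present in both libraries, from 22.5 to 10534 RPKM in the vehicle library and from 42.3 to 11189 RPKM in the clodronate library, where RPKM is a read number divided by transcript length and by library size. The 8 epithelial markers summed to 15.8 and 11.4 RPKM, and 3 of them (Epcam, Krt19 and Cldn4) were listed at 0 in both. Of the 4 that averaged 1 RPKM or more, 2 were higher in clodronate, Cdh1 (6.14 and 6.44 RPKM) and Krt18 (2.97 and 3.19 RPKM). The other 2, Krt7 and Krt8, were lower. Of the blood progenitor markers, Kit had 1.36 and 0.717 RPKM, Cd34 had 2.60 and 1.02 RPKM, and Gata1 was listed at 0 in both. The 8 fibroblast markers summed to 157 RPKM in vehicle against 76.4 RPKM in clodronate. The 12 macrophage markers summed to 26381 and 25078 RPKM. Other leukocyte lists had lower sums, 43.1 and 45.1 RPKM for 6 neutrophil genes, 11.1 and 9.76 RPKM for 7 T and NK cell genes, 2.99 and 1.74 RPKM for 4 B cell genes, 23.6 and 29.9 RPKM for 5 dendritic cell genes and 107 and 153 RPKM for 3 monocyte genes. Of the marker genes reported here 2 passed 3-fold on the scale of RPKM + 1, namely Cd209a, with 1.25 and 8.68 RPKM, and Krt7, with 2.2 RPKM in vehicle and a listed value of 0 in clodronate. On plain RPKM, of the markers above 0 in both libraries, Cdh5 of endothelial cells (0.48 and 3.24 RPKM), Cd79b of B cells (1.9 and 0.536 RPKM), Cd3d of T cells (0.837 and 0.0789 RPKM) and Xcr1 of dendritic cells (0.102 and 0.314 RPKM) also differed by more than 3-fold, all named after their values were seen. The levels below are therefore those of cells rich in macrophage transcripts, and the libraries are called vehicle and clodronate after their labels.

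The 3 prolyl hydroxylase genes are each other's closest relatives, and their promoters are shown with that of Hif1a. In the clodronate library Egln2 was higher and Egln3 lower, while Egln1 was nearly equal. A link between the promoters and these values was not tested. Egln1 and Egln3 are known as HIF targets themselves, and Egln2 is not known as one. The sequences are the 250 bases before the RefSeq transcript start on GRCm38.p6, read 5′ to 3′ on the strand of the gene. Capitals mark the core of the hypoxia response element, searched as ACGTG or GCGTG on either strand. Egln1 is at chr8:124949255-124949504 on the minus strand, Egln2 at chr7:27166803-27167052 on the minus strand, Egln3 at chr12:54203875-54204124 on the minus strand and Hif1a at chr12:73907617-73907866 on the plus strand.
Egln1: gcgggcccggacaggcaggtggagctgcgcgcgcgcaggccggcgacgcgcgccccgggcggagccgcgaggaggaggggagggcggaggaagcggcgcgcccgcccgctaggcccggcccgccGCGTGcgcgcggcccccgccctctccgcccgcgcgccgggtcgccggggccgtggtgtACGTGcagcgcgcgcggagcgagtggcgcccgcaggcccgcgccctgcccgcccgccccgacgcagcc
Egln2: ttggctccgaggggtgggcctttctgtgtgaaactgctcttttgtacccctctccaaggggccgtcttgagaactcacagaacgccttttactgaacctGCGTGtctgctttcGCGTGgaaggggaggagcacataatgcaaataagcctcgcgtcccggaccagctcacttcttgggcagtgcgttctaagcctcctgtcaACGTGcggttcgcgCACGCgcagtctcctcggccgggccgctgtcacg
Egln3: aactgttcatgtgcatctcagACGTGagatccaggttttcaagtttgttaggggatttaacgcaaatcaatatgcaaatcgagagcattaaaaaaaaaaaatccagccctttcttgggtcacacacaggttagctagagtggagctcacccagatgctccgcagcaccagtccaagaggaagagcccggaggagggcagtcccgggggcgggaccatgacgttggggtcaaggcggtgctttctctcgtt
Hif1a: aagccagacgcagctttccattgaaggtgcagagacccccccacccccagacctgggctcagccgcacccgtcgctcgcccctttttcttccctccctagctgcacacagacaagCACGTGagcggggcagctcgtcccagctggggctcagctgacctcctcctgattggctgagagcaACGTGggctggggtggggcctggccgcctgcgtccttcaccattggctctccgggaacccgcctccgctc

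The Egln2 window held 4 core matches, the Hif1a window 3, the Egln1 window 2 and the Egln3 window 1. Of the Hif1a matches, 2 are the opposite strands of a single CACGTG, the palindrome that E-box factors also read, and they overlap. A further RefSeq start of Egln2, at chr7:27165729-27165978, had 1 match. Of the 10 genes 9 had a promoter in the RefSeq table, with 10 windows in all. A match to either core stood in 7 of these 10 windows, and in 38.6% of all 32851 promoter windows of the same length. The ACGTG form alone stood in 4 of the 10 and in 16.6% of all. The windows of Vhl, Arnt2 and Hif1an had none. These are matches of letters, and no binding was measured.

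The 10 genes summed to nearly the same level in both libraries, 126.7 RPKM in vehicle against 125.3 RPKM in clodronate. Of the 10, 8 averaged 1 RPKM or more across the libraries and were compared, as were 10982 genes in all. On the scale of RPKM + 1, 0 of these 8 reached a 3-fold difference upward and 0 downward in the clodronate library. Over all genes compared, 2.86% reached it upward and 2.32% downward. The log2 ratios of the 8 genes, clodronate over vehicle after adding 1 RPKM, ran from -0.55 to 0.82 with a median of -0.14, against a median of 0.02 over all genes.

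**Figure D1:**
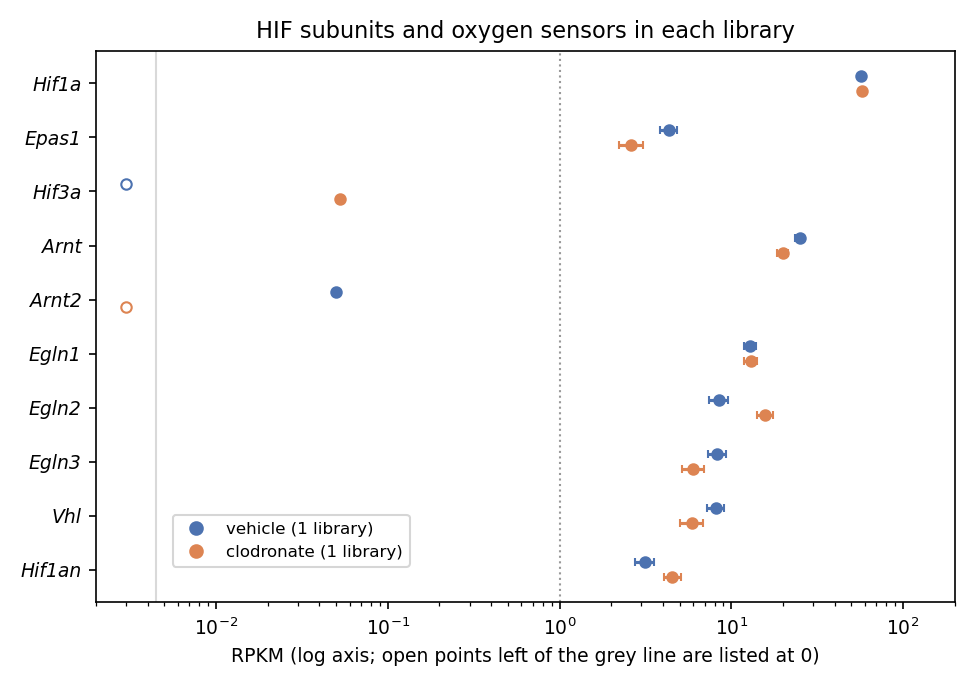
RPKM of the 10 genes in the vehicle library (blue) and the clodronate library (orange), 1 library each, on a log axis. Bars are 95% Poisson intervals of the estimated reads, drawn for values of at least 10 reads, and the dotted line is at 1 RPKM. Hif1a stands highest in both libraries, near 57 RPKM, while Hif3a and Arnt2 lie under 0.1 RPKM or are listed at 0.

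The files give no read counts, but their low values fall on steps. Among loci with 1 transcript of at least 3000 bases and a value of up to 3 reads, 82.8% of 145 values in the vehicle library and 79.7% of 266 in the clodronate library lay within 0.1 read of a whole number, once 1 read was taken to be worth 0.0765 and 0.0935 RPKM times kilobase. The worth of 1 read was fitted on 57 of these vehicle values and 84 of these clodronate values, so part of each share holds by construction. Reads behind each gene were estimated from the steps and the transcript lengths of GENCODE M21. The intervals below are 95% intervals on those estimated reads, exact Poisson for a level and Clopper-Pearson for a ratio. They cover counting error alone and leave out differences between mice, sorts and preparations.

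Among the alpha subunits, Hif1a, which encodes HIF-1α, had 56.6 RPKM in vehicle against 57.5 RPKM in clodronate, from an estimated 3496 and 2905 reads. The ratio was 1.02, with a counting interval from 0.967 to 1.07. Its level lay above that of 87.3% and 87.2% of the genes compared, and it was the highest of the 10 in both libraries. The gene lies on chromosome 12 from 75008854 to 75048517 of mm9, the build that the submitters' processing notes name. Hif1a has the lowest GC content of the 8 genes compared, 41.3% of its transcript, and genes in the same bin, the lowest of 10, had a median log2 ratio of -0.24. After trends with GC content and length were subtracted, its log2 ratio was 0.20 in place of 0.02.

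Epas1, which encodes HIF-2α, had 4.31 RPKM in vehicle against 2.62 RPKM in clodronate, from an estimated 311 and 155 reads. It was lower in the clodronate library, at 0.609 of the vehicle value with a counting interval from 0.499 to 0.741. Its log2 ratio of -0.55 was the lowest of the 8, and 35.4% of all genes compared had a ratio at least as far from 0. With the trends over GC content and transcript length subtracted it was -0.68. HIF-2α is prominent in endothelial cells, and the 8 endothelial markers summed to 3.34 RPKM in vehicle against 8.26 RPKM in clodronate, with 4 and 3 of them listed at 0 and Tek, Emcn and Cldn5 at 0 in both. Vwf went against that endothelial sum, with 0.967 and 0.443 RPKM. The fibroblast sum was lower in the clodronate library, as Epas1 was. Most of it came from Dcn (77.3 and 28.4 RPKM) and Col3a1 (62.1 and 34.4 RPKM). Of the 7 fibroblast markers that averaged 1 RPKM or more, 6 were lower and 1 was higher, Col1a1 with 2.32 and 5.40 RPKM. The part of either cell type in the Epas1 value was not tested, and in bulk RNA fewer cells of a type and less RNA per cell cannot be told apart. Epas1 lies on chromosome 17 from 87153204 to 87232750.

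Hif3a, whose product can oppose the other alpha subunits, had a listed value of 0 for vehicle and of 0.0529 RPKM for clodronate. That value amounts to between 1 and 4 reads, depending on which of its transcripts, 2206 or 6402 bases long, is taken. Hif1a thus made up 92.9% of the summed alpha subunit RPKM in the vehicle and 95.6% in the clodronate library, Epas1 7.08% and 4.36%. The Hif1a level was 13.1 times that of Epas1 in vehicle and 21.9 times in clodronate.

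The beta subunit Arnt, the shared partner of the alpha subunits and of the aryl hydrocarbon receptor, had 25.01 RPKM in vehicle against 19.97 RPKM in clodronate. The ratio was 0.799, with a counting interval from 0.727 to 0.876. It was the second highest of the 10 in both libraries, above 72.7% and 66.4% of the genes compared. Its transcripts in the annotation are between 2699 and 4325 bases long, so its reads are known only as a range, between 883 and 1414 in vehicle and between 577 and 924 in clodronate. The counting interval of its ratio was taken at the midpoint of these lengths, with 1149 and 750 reads. Hif1a stood at 2.26 times Arnt in vehicle and 2.88 times in clodronate. Arnt2, the neuronal paralog, had 0.0502 RPKM in the vehicle library, about 4 reads, and was listed at 0 in the clodronate library. Arnt lies on chromosome 3 from 95238312 to 95301161.

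**Figure D2:**
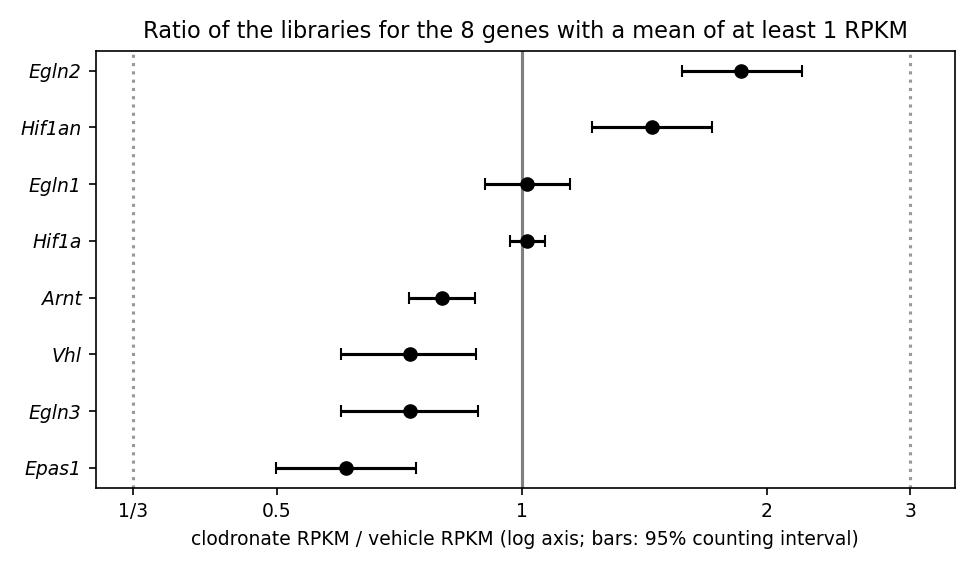
Clodronate RPKM over vehicle RPKM for the 8 genes that averaged 1 RPKM or more, on a log axis, with 95% counting intervals from estimated reads. The solid line marks equal values and the dotted lines 3-fold. Egln2 (1.86) and Hif1an (1.44) lie to the right, Hif1a and Egln1 (both 1.02) at equality, and Arnt (0.799), Vhl (0.730), Egln3 (0.728) and Epas1 (0.609) to the left, and all 8 lie within 3-fold.

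Of the prolyl hydroxylases, Egln1 encodes PHD2, the main oxygen sensor for HIF-1α in most cells. It had 12.8 RPKM in vehicle against 13.0 RPKM in clodronate, from an estimated 602 and 500 reads, with a ratio of 1.02 and a counting interval from 0.90 to 1.15. Like that of Hif1a, its level differed by less than the counting error before any correction for GC content and length. The Hif1a level was 4.42 times that of Egln1 in each library. Egln1 is rich in GC (56.0%), and after the trends with GC content and length were subtracted its log2 ratio was -0.23 in place of 0.02. It lies on chromosome 8 from 127432487 to 127473154.

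Egln2, which encodes PHD1, had the log2 ratio farthest from 0 of the 8 genes before any correction for GC content and length. It had 8.46 RPKM in vehicle against 15.7 RPKM in clodronate, from an estimated 233 and 355 reads. The ratio was 1.86, with a counting interval from 1.57 to 2.21. The log2 ratio of 0.82 was above that of 89.8% of all genes compared, and 19.9% had a ratio at least as far from 0. Its transcript has the highest GC content of the 8 genes, 62.2%, and the genes of its GC bin, the highest of 10, had a median log2 ratio of 0.29. With the trends subtracted the log2 ratio of Egln2 was 0.60, and Epas1, at -0.68, then lay farthest from 0. The locus, on chromosome 7 from 27943677 to 27951821, overlapped no other locus of the files, and neither did those of the other 9 genes.

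Egln3, which encodes PHD3 and is strongly induced by HIF in many cells, had 8.25 RPKM in vehicle against 6.00 RPKM in clodronate, from an estimated 287 and 171 reads. The ratio was 0.728, with a counting interval from 0.599 to 0.883. It lies on chromosome 12 from 55279968 to 55304861. The hydroxylases together had 29.5 RPKM in vehicle against 34.7 RPKM in clodronate. Egln1 made up 43.4% of that sum in vehicle and 37.4% in clodronate, Egln2 28.7% and 45.3%, and Egln3 27.9% and 17.3%. Egln1 was thus the most abundant of the 3 in the vehicle library, where its counting interval, from 11.8 to 13.9 RPKM, did not overlap that of Egln2, from 7.41 to 9.62 RPKM. In the clodronate library Egln2 was highest, but its interval, from 14.2 to 17.5 RPKM, touched that of Egln1, from 11.9 to 14.2 RPKM. Egln2 stood at 1.03 times Egln3 in vehicle and at 2.62 times in clodronate.

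**Figure D3:**
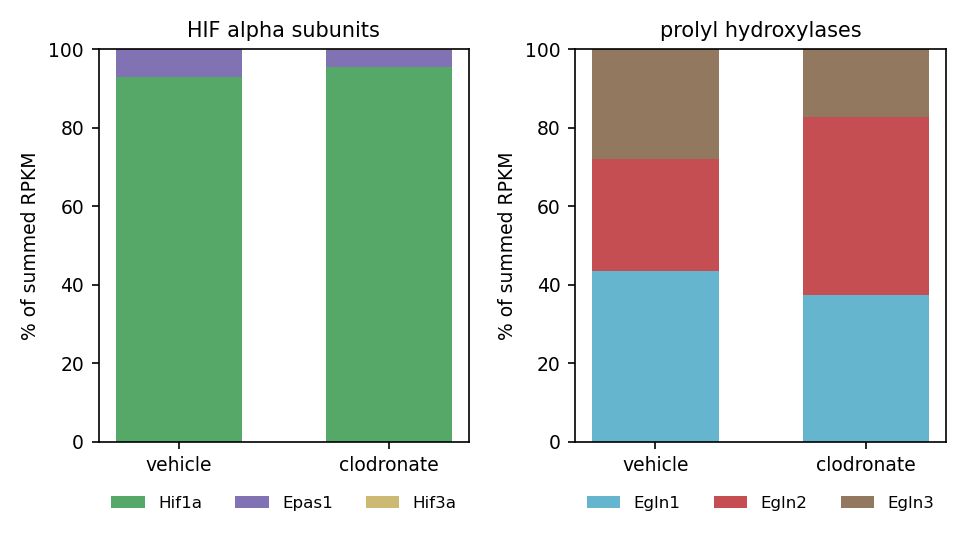
Shares of the summed RPKM of the HIF alpha subunits (left) and of the prolyl hydroxylases (right) in the vehicle and the clodronate library, 1 library each. Hif1a makes up over 90% of the alpha subunits in both, while Egln2 goes from 28.7% to 45.3% of the hydroxylases and Egln3 from 27.9% to 17.3%; the Hif3a share is too small to be seen.

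Vhl, the substrate-binding part of the ubiquitin ligase, had 8.10 RPKM in vehicle against 5.91 RPKM in clodronate, from an estimated 296 and 176 reads. The ratio was 0.730, with a counting interval from 0.60 to 0.879. Its level was near that of Egln3, which stood at 1.02 times Vhl in both libraries, and the intervals of these genes overlapped in each. Vhl lies on chromosome 6 from 113574015 to 113581627. Hif1an, which encodes the asparaginyl hydroxylase FIH, had 3.14 RPKM in vehicle against 4.53 RPKM in clodronate, from an estimated 254 and 300 reads. The ratio was 1.44, with a counting interval from 1.22 to 1.71, and the log2 ratio went from 0.42 to 0.25 when the GC and length trends were subtracted. Hif1an lies on chromosome 19 from 44637344 to 44650764. Hif1an stood below Epas1 in the vehicle library and above it in the clodronate library, and their intervals did not overlap in either (3.85 to 4.82 RPKM for Epas1 and 2.76 to 3.55 RPKM for Hif1an in vehicle, 2.23 to 3.08 and 4.03 to 5.07 RPKM in clodronate).

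In the order of levels, Hif1a, Arnt and Egln1 led in the vehicle library, followed by Egln2, Egln3 and Vhl, whose intervals overlapped, and then by Epas1 and Hif1an. In the clodronate library Hif1a and Arnt were followed by Egln2 and Egln1, then Egln3 and Vhl, then Hif1an and Epas1. Of the 8 genes, 2 had a counting interval of the ratio above 1, 4 had one below 1 and 2 held 1. That is 6 of 8, or 75%. Of all genes compared, 10639 had reads in both libraries and a known transcript length. Of these, 75.3% had an interval without 1, 39% above and 36.4% below. The share among the HIF genes is therefore near that of these genes, and most of the 10639 differed between the libraries by more than counting error. No correction for GC content and length entered these intervals. After it, the log2 ratios of Hif1a, Egln1, Egln2 and Hif1an, on the scale of RPKM + 1, lay outside their own intervals.

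The genes that work with HIF were followed in a list of 48 genes in 5 groups, of which 38 averaged 1 RPKM or more. Of these, 17 were higher and 21 lower in the clodronate library, where 51.6% of all genes compared were higher and 48.4% lower, and 0 passed 3-fold in either direction on the scale of RPKM + 1, with a median log2 ratio of -0.05. The other parts of the VHL ligase were lower in 4 of 5 cases, with a median of -0.39 before any correction for GC content and length. Elob, the elongin B subunit, had 512 RPKM in vehicle against 326 RPKM in clodronate, and Cul2, the scaffold, named after its values were seen, had 7.58 and 3.87 RPKM. Nedd8, the modifier that activates cullins, was the exception with 176 and 197 RPKM. Vhl itself, with a log2 ratio of -0.40, lay at the middle of these values, and 24.3% of all genes compared had a lower ratio than Vhl.

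Coactivators and competitors had a median log2 ratio of 0.25 over 4 genes. Crebbp, the paralog of p300, had 47.2 RPKM in vehicle against 56.7 RPKM in clodronate, and Cited2, which competes with HIF-1α for p300, had 46.2 and 41.5 RPKM. Of the stability regulators and chaperones 5 of 9 were higher and 4 lower, with a median of 0.12. Rack1, a ribosomal scaffold that can promote HIF-1α loss without oxygen sensing, had 570.2 and 619 RPKM, and Hsp90ab1, a chaperone of HIF-1α, had 470.5 and 567 RPKM. Siah2, a ubiquitin ligase that acts on prolyl hydroxylases and is named after its values were seen, had 6.70 and 14.6 RPKM, a log2 ratio of 1.01. It was 1 of 2 genes of the 38 that were higher by 2-fold or more on the scale of RPKM + 1, as were 6.95% of all genes compared.

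Of the related bHLH-PAS factors, the family of transcription factors to which HIF belongs, 4 of 11 averaged 1 RPKM or more, 2 of them higher and 2 lower, with a median log2 ratio of 0.40. Ahr, the dioxin receptor, which shares Arnt with HIF, had 20.0 RPKM in vehicle against 12.2 RPKM in clodronate, and Clock, of the circadian clock, had 14.8 and 14.5 RPKM. Arntl, a partner of Clock, had 5.99 and 11.5 RPKM, a log2 ratio of 0.84, and like Arntl2 it is named after its values were seen. Arntl2, the other of the 2 genes past 2-fold on the scale of RPKM + 1, had 0.425 and 2.37 RPKM. Its log2 ratio was 1.24 on that scale and its plain ratio was 5.58. The other oxygenases, enzymes that use oxygen and 2-oxoglutarate as the hydroxylases do, were higher in 6 and lower in 10 of 16 cases with a median of -0.09. Kdm6b, a histone demethylase, had 50.7 and 77.5 RPKM, and Plod1, a collagen lysyl hydroxylase, had 48.1 and 78.96 RPKM. On plain RPKM, Kdm4b (3.24 and 7.46 RPKM) was higher and Plod2 (2.40 and 1.11 RPKM) lower by more than 2-fold. Both are named after their values were seen.

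Textbook HIF targets, a list of 26 genes all above the filter, were higher in 11 cases and lower in 15, with a median log2 ratio of -0.09 and 0 genes past 3-fold. P4ha1 and Kdm3a are in this list and also among the other oxygenases. Aldoa, a glycolytic enzyme, had 652 RPKM in vehicle against 884 RPKM in clodronate, and Arg1, an arginase of macrophages, had 475 and 629 RPKM. At 2-fold, 2 of the 26 were lower, Ddit4 with 4.55 and 1.62 RPKM and Adm with 3.88 and 1.43 RPKM, both named after their values were seen, and 6.77% of all genes compared were lower by as much, so that this count is near that of all genes. Of the sensors that are HIF targets themselves, Egln3 was at 0.728 of its vehicle value, short of 2-fold, and Egln1 was nearly equal, at 1.02.

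**Figure D4:**
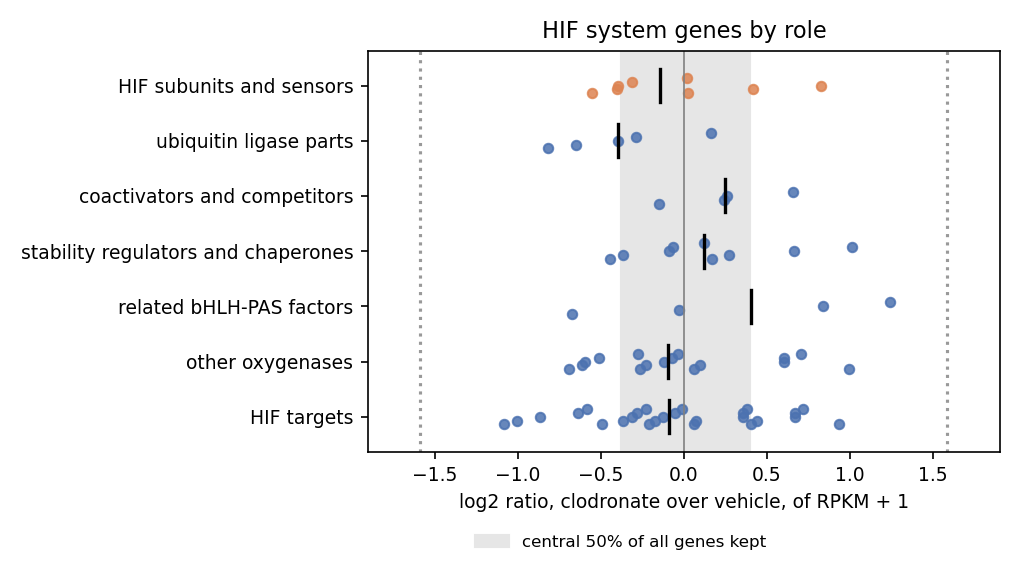
Log2 ratio, clodronate over vehicle, of RPKM + 1 for the HIF subunits and sensors (orange) and for 5 groups of partners and regulators and the HIF targets (blue), where they averaged 1 RPKM or more. Each point is a gene, and P4ha1 and Kdm3a are drawn among both the other oxygenases and the targets. Black bars are medians, the grey band is the central 50% of all genes compared (-0.38 to 0.40) and the dotted lines mark 3-fold. No gene shown lies beyond them, and the medians run from -0.39 for the ligase parts to 0.40 for the bHLH-PAS factors.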

How the data were processed

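The authors deposited RPKM values for 23170 loci in each of 2 libraries. The submitters' processing notes name CASAVA 1.8.2, TopHat2 2.0.9, Bowtie 0.12.9, Cufflinks 2.2.1, Cuffdiff and the build mm9, and the strandedness of the library is not given in the sources used here. The files hold no replicate and no count column, so no count model was used. Lines of the same symbol were summed, and 26 symbols that had become numbers were replaced by their RefSeq names. Locus starts were shifted by 1 to count from 1. Log2 ratios were taken after adding 1 RPKM, and genes averaging 1 RPKM or more were compared. Ratios with counting intervals were taken without the added RPKM.

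Read worth was the commonest product of value and transcript length among low loci. The ratio of these steps, 0.818, was close to the commonest ratio of low values between libraries, 0.8162. Estimated reads in all loci came to 15337800 in vehicle and 13030900 in clodronate. The steps depend on transcript lengths of a later annotation, and PCR duplicates are not removed by them. For the GC and length correction, medians of 10 bins of each were subtracted, and 98.7% of the genes compared had a value. The 3-fold calls and the read worth were tested on simulated data, drawn and read back with the same transcript lengths. The counting intervals and loci with several transcripts were not tested in this way. All 10 genes, the highest 2 of each partner and target group by mean RPKM and any past 3-fold could be named. The genes and lists were chosen with earlier results of these data known. The result for 1 marker gene is not reported here. Alternatives are described in the closing section. The work used Python 3.11.15 with scipy 1.17.1, pandas 2.3.3 and numpy 2.4.6.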

Additional observations from a re-analysis of the deposited data

How the results depend on the processing

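No paired analysis was possible because there is a single library per condition, and no library could be left out. The GC and length correction was chosen after seeing the data. No gene passed 3-fold among the 8 compared with a pseudocount of 0.1 RPKM, under both scalings, with the highest line of repeated symbols or after the correction, among 10 without a filter or among the 6 left by a 5 RPKM filter, and none of the 8 passed 2-fold. Their median log2 ratio, -0.14, was -0.15 with the pseudocount of 0.1, -0.025 without a filter over 10 genes, -0.16 centred on the median, -0.19 at the same upper quartile and -0.29 after the correction. For the partner list it was 0 without a filter, 0.017 with a 5 RPKM filter, -0.069 centred, -0.095 at the same upper quartile and -0.027 corrected. For the targets it was -0.11 centred, -0.14 at the same upper quartile and -0.048 corrected. The direction of 6 of the 8 genes compared held in the alternatives that gave them a value. Epas1 and Hif1an had none under the 5 RPKM filter. Hif1a and Egln1, with 0.022 and 0.021, had -0.023 and -0.022 at the same upper quartile and 0.20 and -0.23 after the correction. Genes at least 3-fold higher and lower, 314 and 255, came to 532 and 480 with the pseudocount of 0.1, to 127 and 101 with a 5 RPKM filter and to 763 and 744 at 2-fold, each of which changes by construction how many can pass. A value listed at 0 is not read as absence.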
